A study of Homo sapiens with 18 samples.

Results

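CP70, a platinum-resistant line derived from A2780 by selection in culture, was compared with its platinum-sensitive parent A2780 by ATAC-seq, which reads open chromatin from insertions of the Tn5 transposase. The members were the 1 kb windows with a mean over 1 FPKM (fragments per kilobase of window, scaled to library size) in the 6 libraries of this pair, 37128 of the 89428 windows in the deposited table. They comprised 18805 promoter windows, which hold or lie just upstream of the start of a protein-coding transcript, and 18323 distal windows. Each line had 3 libraries. Both are established lines that the labels call endometrial/ovarian cancer cells, and both were grown in RPMI-1640 medium with glutamine and fetal bovine serum. The labels name no drug treatment. Nothing states that the replicates came from separate cultures, so p-values measure the spread between these libraries, which may be technical. The comparison asks which regulatory regions differ between a parental line and a derivative selected for resistance.

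Cisplatin kills cells through platinum-DNA adducts. The adducts are removed by nucleotide excision repair and bypassed by translesion polymerases, and cells can also limit the drug's entry or detoxify it with glutathione. Promoters and distal enhancers that a cell uses are nucleosome-poor and open to Tn5, and enhancers tend to differ more between cell states than promoters do.

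Sequences are shown for the regions on which the results turn, all from the plus strand of GRCh37. They are the 100 bases shared by neighbouring called windows at the most increased distal site (chr14:84294001-84294100), the most decreased distal site (chr13:62705701-62705800), the largest decreased run beside DLX1 (chr2:172931401-172931500) and the most increased promoter, MUC15 (chr11:26594101-26594200). Capitals would mark AGATAA (the GATA factor motif), TAATTA (homeobox), GGAATG (TEAD), TGAGTCA (AP-1), AACAATG (SOX), TGTTTAC (forkhead) or CTTTGAA (TCF/LEF) on either strand, and a GATA match was found in the chromosome 13 stretch and, as its reverse complement TTATCT, in the DLX1 stretch.
Chromosome 14 distal site: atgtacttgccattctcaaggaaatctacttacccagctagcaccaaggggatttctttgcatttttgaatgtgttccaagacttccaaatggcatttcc
Chromosome 13 distal site: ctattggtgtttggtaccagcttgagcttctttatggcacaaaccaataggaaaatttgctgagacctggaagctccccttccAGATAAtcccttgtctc
DLX1 run: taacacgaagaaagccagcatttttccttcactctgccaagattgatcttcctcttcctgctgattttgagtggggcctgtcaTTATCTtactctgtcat
MUC15 promoter: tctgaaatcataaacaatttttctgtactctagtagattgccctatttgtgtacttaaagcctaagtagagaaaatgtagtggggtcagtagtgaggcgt

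The A2780 libraries held 44381391 to 60495462 reads and the CP70 libraries 13199941 to 23877965, as implied by the value of 1 read. The windows took 8.37 to 10.0% of the reads in A2780 and 11.8 to 15.6% in CP70, with CP70 replicate 1 the highest and the shallowest. Deposited values were higher in CP70 by a median of 0.59 on the log2 scale, and each library was centred on its median before testing. Pearson's r between centred libraries, across windows, was 0.91 to 0.94 within A2780, 0.84 to 0.89 within CP70 and 0.66 to 0.75 between the lines. Of the markers used to check the label, the promoters of 4 of 6 epithelial genes and 5 of 5 mesenchymal genes passed the filter. The filter took the mean over both lines, so a gene could pass through CP70 alone. As deposited, KRT8, KRT18 and KRT19 had 0.738, 0.862 and 0.825 FPKM in A2780, against 2.33, 1.99 and 1.33 in CP70. EPCAM, the other epithelial gene to pass, had 1.75 and 2.48. Of 6 serous genes 2 passed, WT1 (1.10 and 1.49) and MECOM (0.883 and 1.20). Among endothelial genes 1 of 4 passed, among fibroblast and smooth muscle genes 1 of 4, and among endometrioid and clear cell genes 1 of 3. None of 4 leukocyte genes did, and 1 of these had a window in the deposited table. PAX8, a marker of Müllerian and serous cells, had 0.841 FPKM in A2780 and 1.12 in CP70, and SOX17 had 0.896 and 0.939.

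Loss of accessibility was more frequent than gain in CP70, and distal windows changed more often than promoters. At the study's thresholds (log2 fold change over 2 and Benjamini-Hochberg adjusted p under 0.001 in limma), 36 distal windows were higher in CP70 (0.196% of those tested) and 191 were lower (1.04%). Among promoter windows, 4 were higher (0.0213%) and 43 were lower (0.229%). All 274 called windows had libraries that did not overlap between the lines, which 14.1% of all windows did in the higher direction and 15.9% in the lower. Such a lack of overlap largely follows from the thresholds of a call and is not separate support. Accessibility and DNA copy number cannot be told apart in these values. Because 0.1 was added to every FPKM value before the logarithm, the changes of low windows are understated. The direction depended on the scaling, since 85.4% of calls were lower after median centring, 71.1% after quantile normalization and 46.3% (137 lower and 159 higher) with values as deposited. Without CP70 replicate 1, 25 distal and 2 promoter windows were higher.

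**Figure D1:**
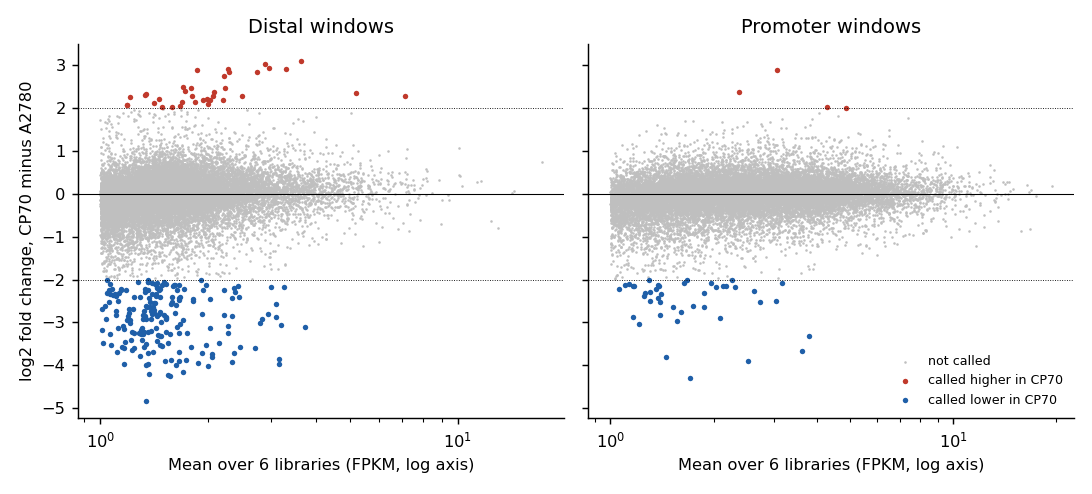
Each point is a 1 kb window, with the mean FPKM over the 6 libraries on a log axis and the log2 fold change of CP70 over A2780 on the vertical axis, distal windows on the left and promoter windows on the right. Called windows are coloured (red higher, blue lower), dotted lines mark a log2 fold change of 2 either way, and the 191 lower distal windows form the largest called group.

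Promoters that lost accessibility included GLIPR1L2, OLFM3, LRRC27 and DLG2. GLIPR1L2, a member of the GLIPR1 family of secreted-protein genes, had 3.78, 5.86 and 4.17 FPKM in A2780 and 0.606, 0.120 and 0.544 in CP70. Its log2 fold change was -3.89 ± 0.27 (limma adjusted p = 3.15e-12). The promoter of OLFM3, an olfactomedin-domain gene, had 2.65, 3.13 and 2.31 FPKM in A2780 and 0.303, 0.180 and 0.126 in CP70 (log2 fold change -3.82 ± 0.31). OLFM3 was at 0.119 to 0.282 FPKM in the other 4 lines of the series (PEA1, PEA2, PEO1 and PEO4), whereas GLIPR1L2 was at 3.37 to 20.8 there. A window at a start of LRRC27, a leucine-rich repeat gene, had 6.15, 8.31 and 5.62 FPKM in A2780 against 0.833, 0.838 and 1.05 in CP70 (log2 fold change -3.32 ± 0.18, limma adjusted p = 1.52e-14). A window at a start of DLG2, a synaptic scaffold gene, had 1.83, 2.48 and 2.03 against 0.152, 0.419 and 0.377 (log2 fold change -3.05 ± 0.33). In each of these windows all A2780 libraries lay above all CP70 libraries, which the rule for naming windows required.

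Few promoters gained, and MUC15, a membrane mucin, gained most. Its upstream window (chr11:26594101-26595100) had 0.401, 0.293 and 0.529 FPKM in A2780 and 8.33, 4.49 and 4.31 in CP70 (log2 fold change 2.90 ± 0.23, adjusted p = 3.24e-11 in limma). The window over its start had 0.453, 0.383 and 0.479 against 6.52, 3.41 and 2.97 (log2 fold change 2.37). CD55, which protects cells from complement, had 2.48, 2.12 and 2.20 FPKM in A2780 and 17.7, 10.1 and 9.67 in CP70. Its log2 fold change was 1.78 ± 0.19 (limma adjusted p = 1.61e-08), and VWDE had 1.82 ± 0.18. CP70 replicate 1 was the highest CP70 library at each of these windows.

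HIVEP2, MAP3K5 and ULBP3, all on 6q, completed the 6 most increased promoters. HIVEP2, a zinc-finger transcription factor gene, had 0.837, 1.62 and 0.975 FPKM in A2780 and 10.2, 6.29 and 5.70 in CP70 (log2 fold change 2.02 ± 0.19). MAP3K5, a stress-activated kinase gene, had 1.15, 1.53 and 1.21 against 11.5, 7.06 and 6.78 (2.00 ± 0.17), and ULBP3, a ligand of the NKG2D receptor, had 1.22, 1.13 and 1.09 against 9.55, 5.81 and 5.57 (1.88 ± 0.17). With the median of the surrounding 5 Mb removed, these log2 fold changes were 0.92, 0.80 and 1.12, whereas those of MUC15 and CD55 were 2.86 and 1.98. HIVEP2 and MAP3K5 also fell below a log2 fold change of 2 without CP70 replicate 1 or A2780 replicate 1, the lowest values being 1.81 and 1.86.

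**Figure D2:**
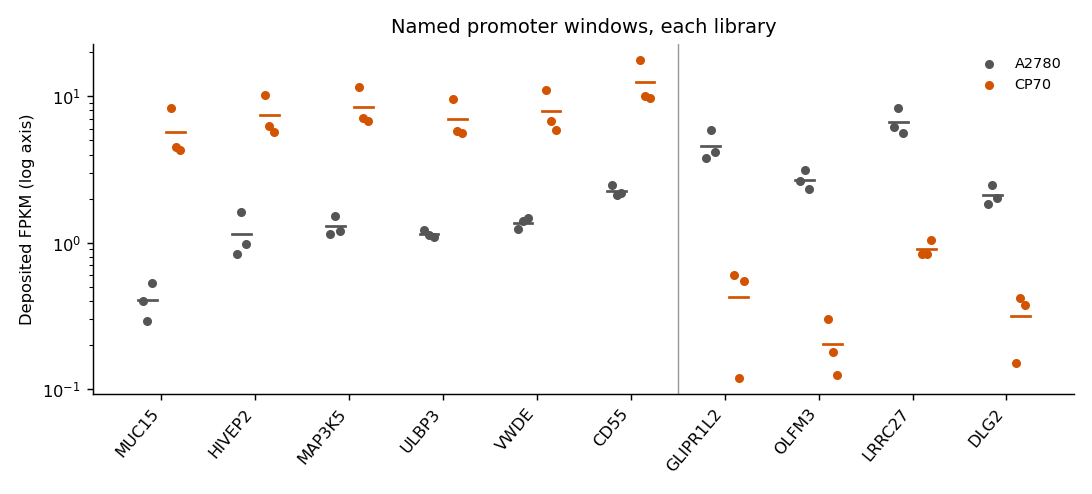
Deposited FPKM on a log axis of each library (points) and the mean of each line (bars) for the 10 named promoter windows, increased ones left of the line and decreased ones right of it. Windows were named only where the 3 A2780 libraries and the 3 CP70 libraries did not overlap, so the lack of overlap follows from the choice.

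Whole segments of chromosomes shifted together. Of 493 bins of 5 Mb with at least 20 tested windows, 17 were higher in CP70 (3.45%) and 42 were lower (8.52%) at a log2 fold change over 0.5 and limma adjusted p under 0.05. With values as deposited 262 were higher and 5 lower, the opposite balance. On 6q, 12 bins between 105 and 170 Mb were higher, with 95.6% of their 452 windows above 0 and a median log2 fold change of 0.86. The highest bin, 135 to 140 Mb, had 1.20 ± 0.14, followed by 140 to 145 Mb with 1.10 ± 0.13 and 160 to 165 Mb with 1.04 ± 0.17. The lowest were 215 to 220 Mb of chromosome 1 with -1.48 ± 0.09, 160 to 165 Mb of chromosome 2 with -1.26 ± 0.10 and 225 to 230 Mb of chromosome 2 with -1.24 ± 0.10. Lower bins were most numerous on chromosome 1 (11 of 42), chromosome 13 (5 of 11), chromosome 2 (5 of 42) and chromosome 18 (4 of 9). Differences between bins made up 28.7% of the variance of the fold change among windows.

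**Figure D3:**
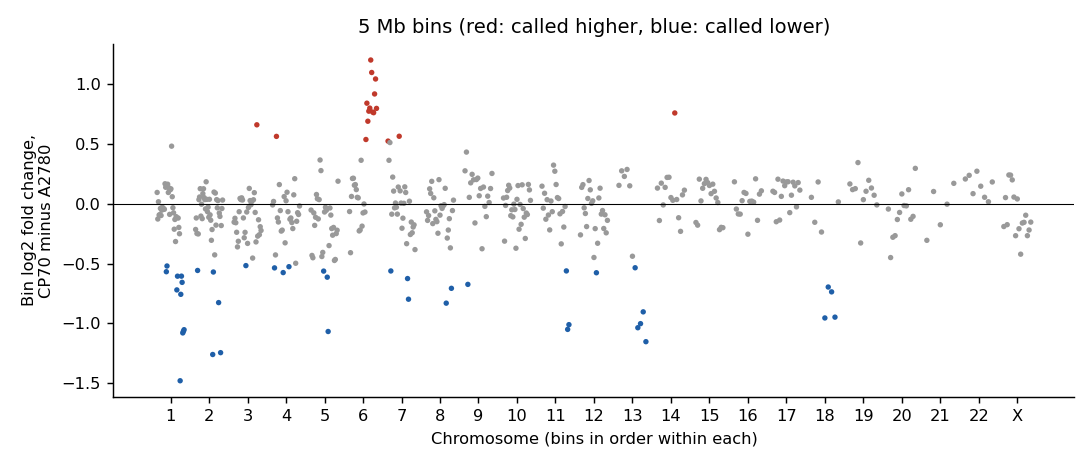
Each point is a 5 Mb bin, placed in order within its chromosome, with the difference in median centred log2 FPKM between CP70 and A2780 on the vertical axis. The red points on chromosome 6 are the 12 raised bins of 6q, and blue points are the 42 lower bins.

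Of the 36 increased distal windows, 28 (77.8%) lay over 100 kb from a protein-coding start. The share was 40.8% of the 191 lower windows and 8.76% of all tested distal windows. An intergenic window at chr14:84293101-84294100 had 0.314, 0.496 and 0.496 FPKM in A2780 and 9.17, 6.11 and 5.28 in CP70 (log2 fold change 3.10 ± 0.20, limma adjusted p = 7.02e-13), and it was at 0.185 to 0.630 FPKM in the other 4 lines. A window in an intron of NLGN1, a neuronal adhesion gene, had 0.279, 0.563 and 0.446 against 9.85, 4.55 and 4.19 (2.92 ± 0.23), while the NLGN1 promoter had a log2 fold change of 0.30 (limma adjusted p = 0.392). The chromosome 14 window and the NLGN1 intron window also lay in raised bins. With the bin median removed they had 2.34 and 2.26. A run of 6 called windows over 37.9 kb lay in an intron of SLIT2, the axon guidance ligand, with largest log2 fold change 2.49 ± 0.28. The run lay in a raised bin of chromosome 4, and that window had 1.92 with the bin median removed, short of the call. The SLIT2 promoter had -0.04 (limma adjusted p = 0.934). On 6q, a window 50.2 kb upstream of EZR, which links membrane to actin, had 2.91 ± 0.29 and one 109 kb upstream of EYA4 had 2.85 ± 0.25. Both lay in raised bins. EZR's window fell just under a log2 fold change of 2 with the bin median removed and lost its call, and EYA4's had 2.05. Their genes' promoters had log2 fold changes of 1.10 and 1.20, and 0.18 and 0.40 with the bin median removed.

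The most decreased distal window, chr13:62704801-62705800, was nearly empty in CP70. A2780 had 2.28, 3.33 and 2.31 FPKM, and CP70 had 1 read in each of replicates 1 and 2 and was listed at 0 in replicate 3 (log2 fold change -4.84 ± 0.43, limma adjusted p = 4.93e-10). The recovered reads, 419 over A2780 and 2 over CP70, gave a ratio of 103 after the same centring, with an exact 95% interval of 28.3 to 852. Such intervals cover counting error only. Further windows with log2 fold changes between -4.25 and -4.03 lay 236 kb upstream of RRP15, 383 kb downstream of FIGN, 59.1 kb downstream of SOCS6, 240 kb downstream of CSNK1G3 and 34.2 kb downstream of DUSP6. Each had 2.08 to 4.48 FPKM in A2780 and at most 0.455 in CP70. The promoters of SOCS6 (-0.27, limma adjusted p = 0.392) and CSNK1G3 (0.57, adjusted p = 0.0446) were not 2-fold changed, whereas those of FIGN (-1.60) and DUSP6 (-1.11) were lower. With the bin median removed FIGN had -0.34 and DUSP6 -0.53, short of 2-fold, and CSNK1G3 and SOCS6 had 1.63 and 0.88.

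Many called windows of both directions lay in runs of 2 or more with gaps under 50 kb. How often tested windows at large lie so close together was not computed, so clustering of the changes was not tested. Of the 234 decreased windows 149 lay in 45 runs, and of the 40 increased windows 24 lay in 8 runs. Adjacent windows overlap, so the shortest runs were 2 overlapping windows (1.9 kb). The largest run held 22 called windows of 26 tested over 82.0 kb from METAP1D to the distal-less homeobox gene DLX1. Median values over its called windows were 3.03, 3.59 and 2.63 FPKM in A2780 and 0.568, 0.479 and 0.461 in CP70, and 0.087 to 0.327 in the other 4 lines. Its largest change, at chr2:172930501-172931500, was -3.98 ± 0.21 (limma adjusted p = 9.84e-15). The DLX1 promoter had a log2 fold change of -0.43 (limma adjusted p = 0.149) and the DLX2 promoter -0.78 (adjusted p = 0.00255), whereas the called windows of the run had -2.25 or less. A run of 5 called windows of 8 tested lay beside DLX6, another gene of the family, with a median of -3.12. The DLX6 promoter windows had -0.85, -0.12 and 0.25, and the promoter of the neighbouring DLX5 had -1.26.

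Other runs held 9 windows over 91.9 kb upstream of NFIB, a nuclear factor I gene, with a median log2 fold change of -3.28, 7 windows near CSNK1G3 with -3.56 and 6 windows near RRP15 with -2.85. The NFIB promoter had -0.00 (limma adjusted p = 0.998). With the bin median removed the RRP15 run had -1.37 and the NFIB run -2.61. At IRS2, an adaptor of insulin signalling, both promoter windows were within the run and had -2.51 and -2.52, or -1.36 and -1.37 with the bin median removed, short of the call. The promoter of ZIC1, a neural transcription factor gene, had 2.06, 2.48 and 1.97 FPKM in A2780 and 0.909, 0.239 and 0.628 in CP70 (-2.42 ± 0.28, or -1.97 with the bin median removed).

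**Figure D4:**
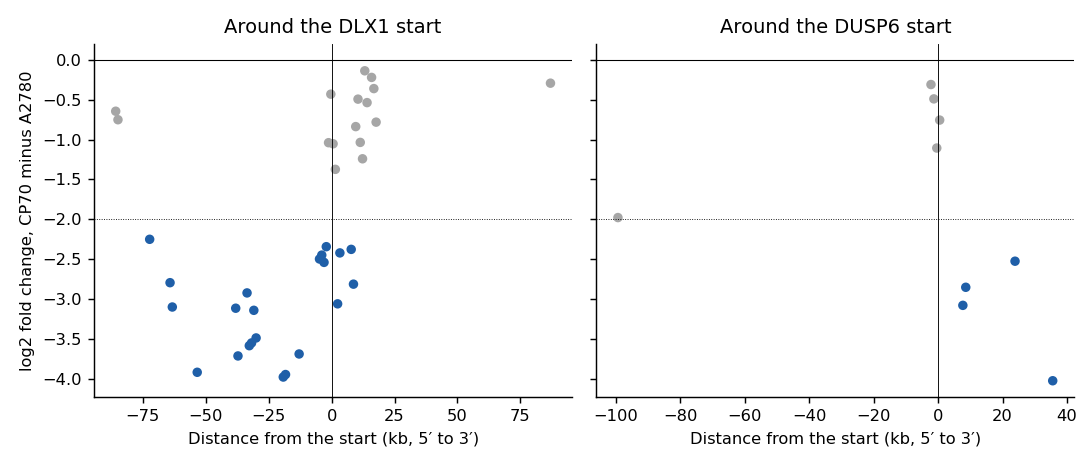
Log2 fold change of each tested window (points, blue where called) against its distance in kb from the canonical start of DLX1 (left) and DUSP6 (right), read in the direction of transcription. Windows at either start lie above the dotted line at -2, whereas called windows reach -3.98 upstream of DLX1 and -4.03 downstream of DUSP6.

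Called distal windows differed from distal windows at large in position and base composition, described here with no test. The median distance to a protein-coding start was 49.2 kb for lower and 215 kb for higher windows, against 5.80 kb for all tested distal windows. Median GC content was 43.9% and 41.4%, against 59.1%. Of the 191 lower windows, 109 had no other line above 1 FPKM, as did 20 of the 36 higher windows and 729 of all 18323. TAATTA was present in 34.6% of lower and 25% of higher windows against 11.1% of all, and AGATAA in 51.8% and 44.4% against 22.8%. Within the GC range of 40.2 to 49.8%, the shares in 95 lower and 2819 tested windows were closer, at 29.5% and 27.8% for the first of these motifs and 56.8% and 46.2% for the second. GGAATG was in 63.9% of higher, 44% of lower and 40.9% of all distal windows, and the GC box GGGCGG in 16.7%, 31.4% and 67.3%. Within the same GC range GGAATG was in 45.3% of lower and 47.4% of tested windows, and GGGCGG in 17.9% and 36.7%. The 36 higher windows were not compared within a GC range.

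At a looser threshold (log2 fold change over 1 and limma adjusted p under 0.05), 317 distal windows were higher (1.73%) and 795 lower (4.34%), and 196 promoter windows were higher (1.04%) and 470 lower (2.50%). A distal window lower by this rule lay within 100 kb of 28.5% of these lower promoter windows, against 4.22% of all tested promoter windows. For higher windows the shares were 43.4% and 2.57%. Of the 196 higher promoter windows 108 lay in the raised 6q bins, as did 61 of the 317 higher distal windows. A distal window can also adjoin the promoter window, and these shares were not tested with the bin median removed. Taking for each gene its promoter window with the highest mean, 122 of 12764 genes were higher (0.956%) and 329 lower (2.58%), with a median log2 fold change of 0.01 over all. As deposited 1135 were higher and 74 lower, the opposite balance, and with the bin median removed 73 and 149. Of the 122, 66 lay in the raised 6q bins, and without CP70 replicate 1 the count was 75.

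Excision repair and recombination genes did not reach the 2-fold rule in limma. None of 20 nucleotide excision and translesion genes passed the 2-fold rule in limma, with 3 higher and 5 lower at unadjusted p under 0.05, and limma-voom called 1 higher. The translesion polymerase subunit REV3L, on 6q, had 0.99 (0.15 with the median of its 5 Mb bin removed) and the endonuclease gene ERCC5, in a lowered bin of chromosome 13, had -0.91 (-0.0026 likewise). None of 32 homologous recombination and Fanconi genes passed in limma or limma-voom, with 1 higher and 5 lower at unadjusted p under 0.05, and values ran from -0.93 at the checkpoint kinase CHEK1 to 0.40 at RAD50. CHEK1 lies in a lowered bin of chromosome 11 and had 0.12 with the bin median removed. BRCA1 and BRCA2 had 0.13 and 0.24. The list medians were -0.05 and -0.06, near that of all genes.

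Among 12 transporter genes tested, the copper exporters ATP7B (-1.15 ± 0.19, limma adjusted p = 2.91e-05) and ATP7A (adjusted p = 0.000499) were lower. ATP7A, which shares its window with PGK1, was at the 2-fold limit and fell short of it without CP70 replicate 1 (-0.93), CP70 replicate 2 (-0.97) or A2780 replicate 2 (-0.87). ATP7B had -0.62 and ATP7A -0.64 with the bin median removed, and neither passed. The copper importer SLC31A1 had -0.08. In the glutathione list, 2 of 17 genes were lower. For both lists, the shares over all genes were 2.58% lower and 0.956% higher. MGST1, a microsomal glutathione transferase, had 2.04, 2.66 and 1.93 FPKM in A2780 and 0.833, 0.599 and 0.377 in CP70 (-2.34 ± 0.25, limma adjusted p = 1.38e-08), and GSTM2 had -1.13 ± 0.23, or -0.92 without CP70 replicate 1. None of 23 apoptosis and p53 response genes passed in limma or limma-voom, with 3 higher and 1 lower at unadjusted p under 0.05.

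Genes of mesenchymal state and matrix were mostly lower where they changed. Of 17 mesenchymal transition genes, 4 were lower and 0 higher, with a list median of -0.59, or -0.40 with the bin median removed. The matrix list had a median of 0.0019. Over all genes 2.58% were lower and 0.956% higher. SPARC, a matrix glycoprotein, had 2.11, 3.13 and 2.18 FPKM in A2780 and 1.36, 0.658 and 1.17 in CP70 (-1.75 ± 0.21, limma adjusted p = 2.51e-07). N-cadherin (CDH2) had -1.23, TWIST1 -1.08 and COL5A1 -1.06, and TWIST1 fell short of 2-fold without CP70 replicate 1. CDH2 had -0.40 and TWIST1 -0.52 with the bin median removed, and neither passed. None of 11 epithelial identity genes passed in limma or limma-voom, with 3 higher and 0 lower at unadjusted p under 0.05. Of 30 matrix genes, 5 were lower, led by the basement membrane gene NID1 (-1.97 ± 0.17, or -0.89 with the bin median removed, which did not pass), and COL12A1, a fibril-associated collagen gene, was higher (1.09 ± 0.18, or 0.95 without CP70 replicate 1 and 0.73 with the bin median removed).

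Of 32 receptor tyrosine kinases, 5 were lower and 0 higher, against 2.58% and 0.956% of all genes. EPHA3, EPHA4 and DDR2 had -0.69, -0.93 and -0.94 with the bin median removed, short of 2-fold. EPHA7, an ephrin receptor, had 3.75, 5.23 and 3.92 FPKM in A2780 and 2.73, 1.62 and 1.38 in CP70 (-1.75 ± 0.18, limma adjusted p = 1.01e-08), and the platelet-derived growth factor receptor PDGFRA had -1.71 ± 0.29. Among 24 axon guidance and neural surface genes 4 were lower, led by EFNB2 (-1.38), which lies in a lowered bin of chromosome 13 and had 0.26 with the bin median removed. TGFB2 (-1.42), in the lowest bin of chromosome 1, likewise had 0.06. The AP-1 subunit FOSL1 was higher (1.59 ± 0.19, limma adjusted p = 1.65e-07), the 1 change among 13 AP-1 genes. CCN2, HEY2 and PLAGL1, all on 6q, had 1.21, 1.32 and 1.32, and 0.41, 0.54 and 0.22 with the bin median removed.

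**Figure D5:**
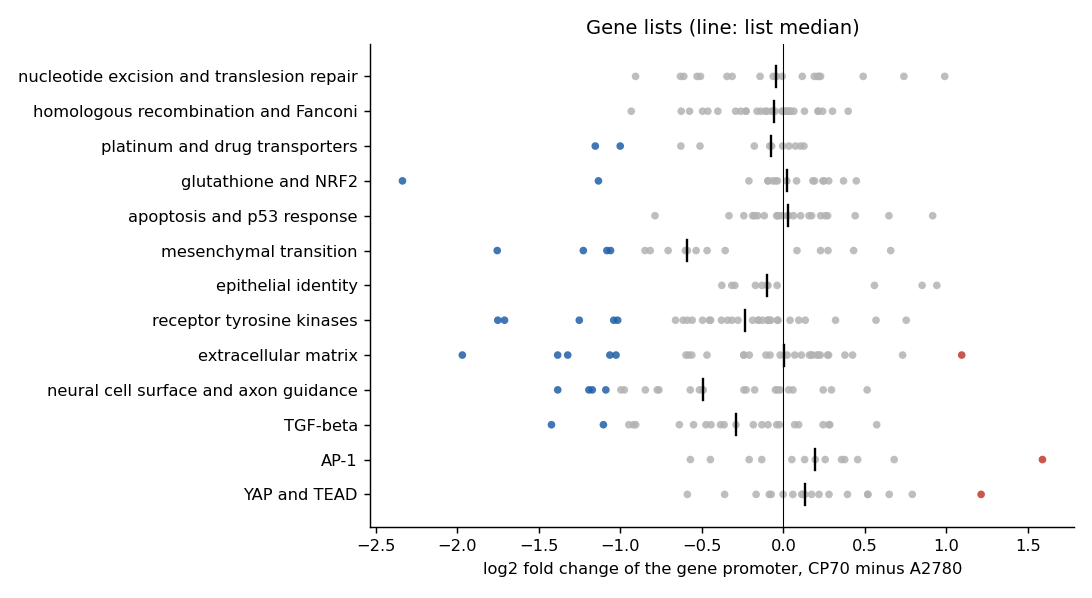
Log2 fold change of the gene promoter (points) for 13 gene lists, coloured where it passed the 2-fold rule (red higher, blue lower), with the list median as a vertical line. Both repair lists at the top hold no coloured point, and the mesenchymal list has a median of -0.59.

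Gene families moved by few members. Of 19 HOX genes 3 were higher (HOXB9, HOXB3 and HOXC13, 1.02 to 1.13) and 0 lower, with a family median of 0.40, against 0.956% higher over all genes. All 3 fell short of 2-fold with the bin median removed (0.94, 0.94 and 0.82). HOXB3 had 0.79 without A2780 replicate 2 and 0.93 without CP70 replicate 1, and HOXC13 fell to between 0.95 and 0.98 without A2780 replicate 2, CP70 replicate 1 or CP70 replicate 3. Of 194 zinc-finger genes outside chromosome 19, 8 were lower and 0 higher, led by ZNF718 (-2.90 ± 0.22), against 2.58% lower over all genes. Of the 8, ZNF396, ZNF397, ZNF516 and ZNF670 had -0.07, -0.15, -0.18 and -0.10 with the bin median removed. Of 173 on chromosome 19, 2 were lower, led by ZNF726 (-2.89 ± 0.39). Of 19 KLF and SP genes 3 were lower, namely KLF7 (-1.68), KLF12 (-1.67) and KLF5 (-1.07). With the bin median removed these had -1.70, -0.74 and -0.14, so that KLF7 alone stayed past 2-fold. None of 43 histone genes passed in limma or limma-voom, with 5 higher and 4 lower at unadjusted p under 0.05. None of 37 proteasome genes did, with 4 and 3. RPS12, on 6q, was the 1 ribosomal protein gene of 74 to pass, at 1.18 and, with the bin median removed, 0.38.

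Some genes discussed by the study were named whatever their value. CCDC80, a matrix-associated protein, had 2.56, 3.56 and 2.41 FPKM in A2780 and 2.42, 1.38 and 1.13 in CP70 (-1.38 ± 0.19, limma adjusted p = 2.98e-06). VEPH1 had 0.92, SPHK1 0.49 and PARP9 0.40. BCAM, DDX60L and MAP1A had 0.07 each, TLE4 -0.38, THBS1 -0.44 and the transcription factor gene SOX9 0.26. Of the genes given here, CCDC80 alone passed the 2-fold rule.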

How the data were processed

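Per the labels and the study's methods, the authors removed duplicates with Picard, aligned read pairs uniquely to hg19 with Bowtie2, dropped blacklisted and mitochondrial reads, counted reads in 1 kb windows with featureCounts, and deposited FPKM from edgeR's rpkm. Versions are not given in the sources used here. Window numbers matched GRCh37 at 23 of 23 chromosome steps, and annotation was GENCODE 44 lifted to that build. Whole reads were recovered for 100% of values (tolerance 0.01). Promoter windows held a start or were centred 1 kb upstream to 100 bp downstream of one. Log2(FPKM + 0.1) values were median-centred and tested with limma 3.58.1 (trended) in R 4.3.3, Benjamini-Hochberg adjusted over all windows. Adjacent windows overlap, since they start every 900 bp. The limma step was tested on simulated data.

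Named windows were the 6 largest changes per class and direction, at least 50 kb apart, filled from the 2-fold rule for promoters. Only windows in which the libraries of the 2 lines did not overlap were eligible. List genes passing the 2-fold rule were named, up to 4 a list, as were genes the study singled out. Some windows and genes are not reported here. Members and lists were chosen with earlier results of these data known. Alternatives covered scaling, GC, pseudocount, filters, depth, replicate block, limma-voom and leaving out each library. Reads carried no molecular identifiers.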

Additional observations from a re-analysis of the deposited data

Results flagged for a closer look

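The change between CP70 and A2780 was set against the mean change of the other 2 pairs (PEA2 against PEA1 and PEO4 against PEO1) in limma over all 18 libraries, and 15 of the 22 named windows could be tested. All 15 differed at Benjamini-Hochberg adjusted p under 0.05. These windows were chosen for their change in CP70, and the libraries used for the choice also enter this test. The direction, and largely the low p-values, follow from that choice. The count therefore does not measure how far the changes are particular to this pair. The difference on the log2 scale was 3.87 and 3.54 at the chromosome 14 sites, 3.68 in NLGN1, 3.44 upstream of EZR, 3.33 upstream of EYA4, 4.004 at MUC15, 2.83 at HIVEP2, 2.97 at MAP3K5, 2.40 at ULBP3, 1.56 at VWDE and 2.44 at CD55. It was -3.66 near SOCS6, -3.81 near CSNK1G3, -3.12 at GLIPR1L2 and -3.02 at LRRC27.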

How the results depend on the processing

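The counts moved with scaling, pseudocount and filter, and the cause was not tested, except that stricter filters leave fewer windows. Counts are given in the order distal windows higher in CP70 (36), distal windows lower in CP70 (191), promoter windows higher in CP70 (4), promoter windows lower in CP70 (43), gene promoters at least 2-fold higher in CP70 (122), gene promoters at least 2-fold lower in CP70 (329), 5 Mb bins higher in CP70 (17) and 5 Mb bins lower in CP70 (42), where they moved by over 1.5 times. As deposited they were 124, 123, 35, 14, 1135, 74, 262 and 5. With a pseudocount of 1 they were 1, 34, 0, 5, 48, 84, 11 and 19. With a pseudocount of 0.5 the first 6 were 9, 115, 1, 15, 78 and 172. At a mean over 5 FPKM they were 2, 0, 0, 0, 24, 19, 0 and 1. At a mean over 2 FPKM they were 17, 32, 2, 15, 160 for lower gene promoters, 7 and 10. Without a filter distal higher were 85, promoter higher 12, and gene promoters 407 and 214. Distal higher were 76 after quantile normalization, 66 after GC correction and 67 in limma-voom. Promoter higher were 2 after GC correction. With the bin median removed, promoter lower were 17 and gene promoters 73 and 149. With an upper limit on depth, promoter higher were 0, gene promoters higher 51 and bins 6 and 19. Bins were 7 and 24 at 10 Mb, and 6 and 17 from distal windows. Promoter lower were 25 with the promoter class of the study and 66 with starts of all transcripts. At the looser thresholds windows were 317, 795, 196 and 470, and at the stricter ones gene promoters 3 and 26. Leaving out 1 library gave 25 to 51, 184 to 199, 2 to 4, 40 to 56, 75 to 178, 296 to 399, 15 to 19 and 34 to 52. Deviations of same-numbered libraries correlated at -0.41, -0.17 and -0.04. Differently numbered libraries were not compared, so these values cannot show whether replicate numbers mark a pairing. The replicate block gave 36, 191, 4, 43, 122, 329, 15 and 34. Of 1688 values of named windows, genes and bins under alternatives, 1396 kept direction and call, 271 lost the call, 7 gained it and 14 reversed. Windows made up 376 of these, of which 25 lost the call and 0 reversed. Reversed genes with the bin median removed were TGFB2 (0.058), EFNB2 (0.26), PCDH9 (0.72), BCAM (-0.062) and MAP1A (-0.059). BCAM had -0.0195 after GC correction and -0.0906 after thinning. Leaving out 1 library, BCAM, DDX60L and MAP1A crossed 0, with BCAM from -0.0495 to 0.197, DDX60L from -0.0551 to 0.179 and MAP1A from -0.0152 to 0.198. THBS1 had 0.13 and TLE4 0.20 as deposited. A planned quasi-likelihood count test was not run, since FPKM values were deposited. CP70 depth limits changes towards 0, where 3 reads equal 0.126 to 0.227 FPKM.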
